A study of Homo sapiens with 6 samples.

Results

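The matrix metalloproteinases (MMP), the disintegrin metalloproteinases (ADAM), their secreted relatives with thrombospondin repeats (ADAMTS) and the tissue inhibitors of metalloproteinases (TIMP) were examined for binding of DPF3a, SMAD4 and p300 in 786-O cells. Members were the protein-coding genes of the GENCODE 44 annotation of hg38 whose symbol is MMP, ADAM, ADAMTS or TIMP followed by digits, with MMP23B added. This gave 66 of 20046 protein-coding genes, with 23 MMP, 20 ADAM, 19 ADAMTS and 4 TIMP genes. A peak was given to a gene when its summit, the position of the highest read pileup, lay inside the gene or within 5000 bp upstream of it. The rule used no measured value.

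MMPs are zinc-dependent endopeptidases that cut collagens, gelatin and other proteins of the extracellular matrix, most of them secreted as inactive precursors and some anchored in the membrane. ADAMs sit in the cell membrane, where the catalytically active ones release ectodomains of growth factors, cytokines and receptors, while ADAMTS enzymes are secreted and process procollagens and proteoglycans. TIMPs bind the active site of MMPs and of some ADAM and ADAMTS enzymes, and the balance of enzymes and inhibitors is widely studied in tumour invasion.

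ChIP-seq, the sequencing of DNA precipitated together with a chromatin protein, was carried out with 2 replicate libraries per factor in 786-O cells, a long-used culture line from kidney cancer of the clear cell type. HA-DPF3a, the short isoform of a SWI/SNF chromatin remodelling subunit that the study found nearly undetectable in these cells, was precipitated through its HA tag from cells made to overexpress it, after fixation with DSG and then formaldehyde. SMAD4, the common SMAD of TGF-β signalling, and p300, a histone acetyltransferase, were precipitated with antibodies to the endogenous proteins after formaldehyde alone, and the labels do not say whether those cells overexpressed DPF3a. Each factor has 1 peak list made from both libraries, so that no value has a replicate error and no test was made. No control library is named. The lists hold 51530 DPF3a, 46367 SMAD4 and 20380 p300 peaks, and the lowest background in each corresponds to 15.8, 30.4 and 27.6 M reads when fragments of 200 bp and a genome of 2.7 Gb are assumed. Antibody, fixation, cells and depth differ between the lists along with the factor, and their parts in any difference between lists cannot be told apart.

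In all, 141 DPF3a, 144 SMAD4 and 64 p300 peaks belonged to members. DPF3a peaks lay at 41 members, or 62.1% (95% Wilson interval 50.1 to 72.9), and at 65.8% of all protein-coding genes. SMAD4 peaks lay at 44 members, or 66.7% (54.7 to 76.8), and at 72.2% of all protein-coding genes. p300 peaks lay at 25 members, or 37.9% (27.2 to 49.9), and at 51.5% of all protein-coding genes. The DPF3a and SMAD4 shares were thus near the background, and the p300 interval ended just under it. With a score over 100, p300 peaks lay at 9 members and at 17.7% of all protein-coding genes. Without peaks inside another protein-coding gene, 34 members had a DPF3a, 36 a SMAD4 and 22 a p300 peak. No share over all genes was computed for that setting. The intervals in brackets are of the same kind and hold the counting error alone, and peaks of the same gene are not independent.

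Sites of all 3 factors were sought next. Such a site was a DPF3a peak that overlapped a SMAD4 peak and a p300 peak, each by at least 0.5 of both peaks. There were 25 of them at 15 members, or 22.7% (14.3 to 34.2), and 29.9% of all protein-coding genes held one. With peaks of a score over 100 only, 8 members kept such a site, and with an overlap of 1 bp 21 members held one. The share of all genes was not computed at that score or that overlap. The 15 members by the main rule were ADAM10, ADAM12, ADAM15, ADAM17, ADAM19, ADAM22, ADAMTS2, ADAMTS3, ADAMTS13, ADAMTS16, MMP2, MMP16, MMP25, MMP28 and TIMP2. The sequences around the DPF3a summit of 8 of these sites are shown to give the reader the bound stretch itself. Each has 101 bases of hg38 on the strand of the gene, and capitals mark a match to a consensus or, where none was found, the summit base.

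MMP2 intron 12, chr16:55503199-55503299, plus strand: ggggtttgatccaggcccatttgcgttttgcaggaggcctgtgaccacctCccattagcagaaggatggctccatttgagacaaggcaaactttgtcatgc
TIMP2 intron 3, chr17:78862232-78862332, minus strand: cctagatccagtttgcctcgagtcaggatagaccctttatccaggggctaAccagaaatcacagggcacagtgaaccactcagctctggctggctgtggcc
ADAM12 intron 1, chr10:126350708-126350808, minus strand: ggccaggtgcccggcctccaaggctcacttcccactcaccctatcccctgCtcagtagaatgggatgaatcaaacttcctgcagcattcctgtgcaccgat
ADAMTS2 intron 2, chr5:179276072-179276172, minus strand: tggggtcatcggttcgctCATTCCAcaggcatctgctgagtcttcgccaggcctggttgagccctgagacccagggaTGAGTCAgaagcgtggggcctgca
ADAMTS2 intron 3, chr5:179265686-179265786, minus strand: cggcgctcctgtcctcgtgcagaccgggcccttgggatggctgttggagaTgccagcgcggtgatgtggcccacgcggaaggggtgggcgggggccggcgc
ADAMTS3 intron 3, chr4:72430182-72430282, minus strand: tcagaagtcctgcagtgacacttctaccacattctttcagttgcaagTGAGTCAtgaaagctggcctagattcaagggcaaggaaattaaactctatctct
ADAMTS16 coding exon 3, chr5:5146097-5146197, plus strand: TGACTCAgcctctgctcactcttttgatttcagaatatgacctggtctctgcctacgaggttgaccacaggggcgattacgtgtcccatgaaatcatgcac
ADAM10 intron 1, chr15:58731830-58731930, minus strand: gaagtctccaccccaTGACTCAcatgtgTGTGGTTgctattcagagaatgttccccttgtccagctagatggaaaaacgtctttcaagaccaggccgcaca

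The consensus sequences searched on both strands within 50 bp of the summit were TGAGTCA for AP-1, TGTGGTT for RUNX, GTCTAGAC for a SMAD palindrome, CATTCCA for TEAD and CCGGAAG for ETS. The word TGACTCA in the ADAMTS16 and ADAM10 stretches is AP-1 read on the opposite strand. A match is a description of letters and does not show that a factor binds there. Of the 8 stretches printed, those of ADAMTS2 intron 2, ADAMTS3, ADAMTS16 and ADAM10 held AP-1, ADAM10 also held RUNX, and ADAMTS2 intron 2 also held TEAD. These were all the AP-1 matches among the 25 sites of all 3 factors, or 4 of 25 (interval 6.40 to 34.7%), compared with 22.05% of all DPF3a summits, and the stretches printed are therefore not a sample of the sites.

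**Figure D1:**
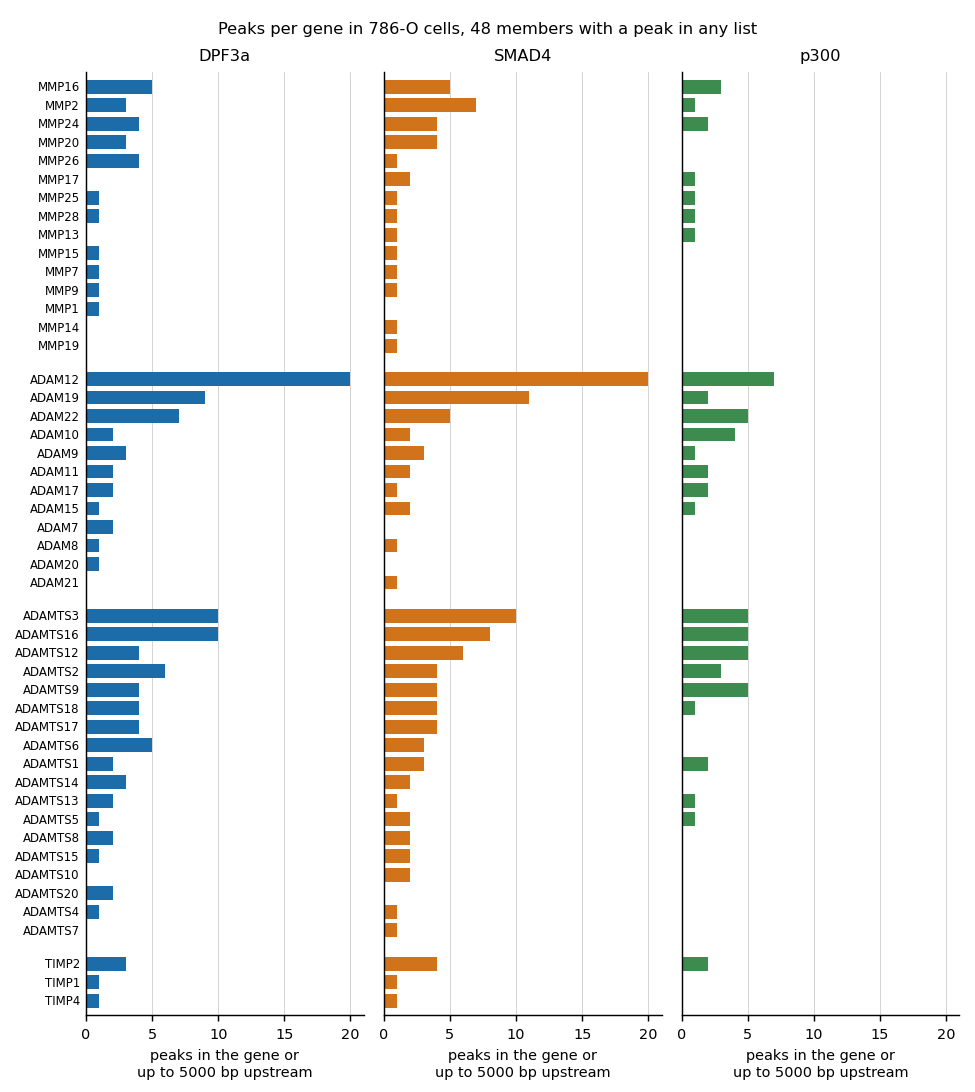
Number of DPF3a, SMAD4 and p300 peaks (horizontal axes) in each of the 48 members with a peak in any list (vertical axis), grouped by family. ADAM12 had 20 DPF3a and 20 SMAD4 peaks, while most members had 5 or fewer.

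A few long genes held many of the peaks. The 5 members with the most peaks over the 3 lists were ADAM12, ADAMTS3, ADAMTS16, ADAM19 and ADAM22. Together they held 56 of the 141 DPF3a peaks (39.7%), 54 of the 144 SMAD4 peaks (37.5%) and 24 of the 64 p300 peaks (37.5%). They were picked by these same counts, so a large share was built in. No such share was computed for other genes. By contrast, 14 members had 1 DPF3a peak, 17 had 1 SMAD4 peak and 10 had 1 p300 peak. Over all member windows the density was 2.12 DPF3a, 2.16 SMAD4 and 0.960 p300 peaks per 100 kb, compared with 2.45, 2.39 and 1.19 over all protein-coding genes. The members were therefore no denser in peaks than protein-coding genes as a whole in any of the 3 lists.

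Gene length moved with the share of genes that had a peak. Among the 29 members under 30 kb, DPF3a peaks lay at 15 (51.7%, 34.4 to 68.6), against 50.7% of all genes of that length. Among the 22 members over 100 kb they lay at 17 (77.3%, 56.6 to 89.9), against 89.2%. For SMAD4 the counts were 17 of 29 (58.6%, 40.7 to 74.5) against 60.6% and 16 of 22 (72.7%, 51.9 to 86.9) against 87.4%. For p300 they were 6 of 29 (20.7%, 9.85 to 38.4) against 36.8% and 13 of 22 (59.1%, 38.7 to 76.7) against 74.1%. In the class between, with 15 members, 9 had a DPF3a peak (interval 35.8 to 80.2%) against 78.3% of all such genes, 11 a SMAD4 peak (73.3%, 48.1 to 89.1) against 83.6%, and 6 a p300 peak (40.0%, 19.8 to 64.3) against 63.8%. Sites of all 3 factors followed length too, at 2 members under 30 kb, 4 in the class between and 9 over 100 kb, against 19.9%, 38.8% and 44.2% of all genes of those lengths. The SMAD4 share of the longest members ended just under that of all genes of that length, and the other intervals reached the background of their class.

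**Figure D2:**
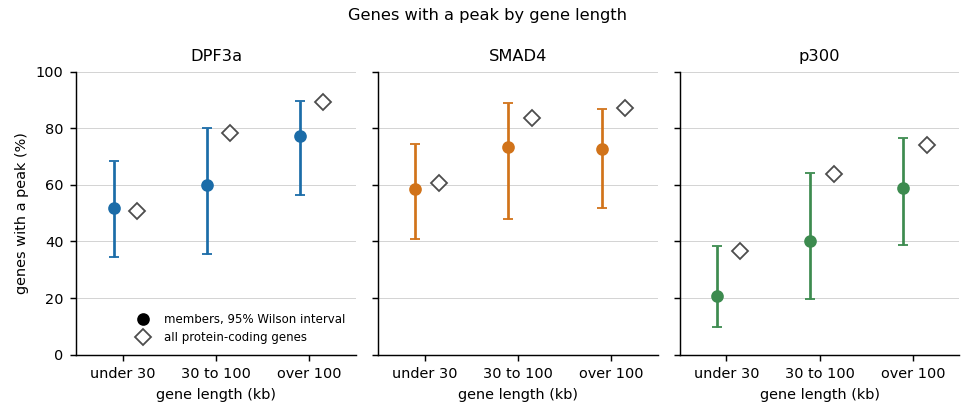
Percent of genes with a peak (vertical axes) by gene length in kb (horizontal axes) for each factor, with members as filled points with 95% Wilson intervals and all protein-coding genes as open diamonds. For p300, 20.7% of members under 30 kb and 59.1% of those over 100 kb had a peak.

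By family, DPF3a peaks lay at 11 of 23 MMP, 11 of 20 ADAM, 16 of 19 ADAMTS and 3 of 4 TIMP genes. SMAD4 peaks lay at 14 MMP, 10 ADAM, 17 ADAMTS and 3 TIMP genes. p300 peaks lay at 7 MMP, 8 ADAM, 9 ADAMTS and 1 TIMP gene. The ADAMTS genes had the highest shares for DPF3a (84.2%, 62.4 to 94.5) and SMAD4 (89.5%, 68.6 to 97.1), next to 65.8% and 72.2% of all genes and 89.2% and 87.4% of all genes over 100 kb. No test of the families against each other was made, and gene length differs between them.

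The combination of lists differed from gene to gene. A peak in each of the 3 lists was found at 23 members, or 34.8% (24.5 to 46.9), compared with 46.7% of all protein-coding genes. Another 14 members had DPF3a and SMAD4 but no p300 peaks, among them MMP7, MMP9, MMP26, TIMP1 and TIMP4. DPF3a alone was found at ADAM7, ADAM20, ADAMTS20 and MMP1, and SMAD4 alone at ADAM21, ADAMTS7, ADAMTS10, MMP14 and MMP19. The ADAM21 peak lay 35131 bp upstream of its canonical start, inside SYNJ2BP and also in the promoter of SYNJ2BP. MMP13 and MMP17 had SMAD4 and p300 peaks without DPF3a. No member had a p300 peak without a SMAD4 peak. For the combinations other than all 3 lists, no share over all protein-coding genes was computed, and their counts are a description only.

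The gelatinases MMP2 and MMP9, which degrade denatured collagen and basement membrane collagen, differed in the 3 lists. MMP2 (chr16:55389700-55506691) had 3 DPF3a, 7 SMAD4 and 1 p300 peaks. The annotation reaches far upstream of the canonical start at 55479198. The SMAD4 summits at 55465364, 55470818, 55471647 and 55472278 and the DPF3a summit at 55471640 lay more than 5000 bp upstream of that start. The MMP2 site of all 3 factors lay in intron 12, 24.1 kb past the canonical start. There the fold enrichment of DPF3a was 8.32, that of SMAD4 7.96 and that of p300 3.61. Fold enrichment is the read pileup at the summit over the local background, each plus 1. The pileups there were 89, 119 and 29 reads. In intron 11 another DPF3a peak of 8.91 met a SMAD4 peak of 10.99, the highest at MMP2, with a RUNX match. The local background at the MMP2 peaks was high, with a median of 9.82 reads in the DPF3a list against 2.82 over all its peaks, and its part in the enrichment values was not tested. MMP9 had 1 DPF3a peak of 5.40 in its promoter, 554 bp upstream of the start and with an AP-1 match, and 1 SMAD4 peak of 5.66 in intron 10, which did not overlap.

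The membrane-type MMPs, which are anchored at the cell surface and cut collagen or activate other MMPs, had SMAD4 peaks at 6 of 6, DPF3a peaks at 4 and p300 peaks at 4, next to 72.2%, 65.8% and 51.5% of all protein-coding genes. MMP16 (MT3-MMP) had 5 DPF3a, 5 SMAD4 and 3 p300 peaks and held a site of all 3 factors at its start, with a fold enrichment of 6.79, 7.69 and 4.35. A DPF3a peak of 7.80 in its intron 5 held the SMAD palindrome, which was found at 33 of 51530 DPF3a summits. MMP25 held its site in a noncoding part of exon 10, with 6.94, 10.6 and 3.85. MMP24 had 4 DPF3a, 4 SMAD4 and 2 p300 peaks but no site of all 3. MMP14 (MT1-MMP), an activator of the MMP2 precursor, had a SMAD4 peak of 5.56 in intron 1, with 59 reads and a RUNX match, and neither a DPF3a nor a p300 peak. MMP15 had a promoter peak of DPF3a (4.32) and of SMAD4 (6.51) with summits 4 bp apart. The membrane-type genes thus ranged from 1 peak at MMP14 to 13 at MMP16.

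AP-1 letters were found at 6 of the 25 DPF3a summits of MMP genes, or 24%, near the 22.05% of the whole list. The first 3 of the stretches shown next hold that word in capitals, and the last is the strongest DPF3a peak of any member, which held none of the words searched and has its summit base in capitals. The MMP7 stretch is taken from the RefSeq promoter table for GRCh38.p14 and has 47 bases, and the others have 101 bases of hg38 on the strand of the gene.

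MMP7 promoter, chr11:102530788-102530834, minus strand: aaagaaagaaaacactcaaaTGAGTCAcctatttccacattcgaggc
MMP1 intron 7, chr11:102791811-102791911, minus strand: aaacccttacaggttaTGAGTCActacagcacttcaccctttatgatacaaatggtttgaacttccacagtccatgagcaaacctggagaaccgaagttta
MMP26 intron 2, chr11:4892129-4892229, plus strand: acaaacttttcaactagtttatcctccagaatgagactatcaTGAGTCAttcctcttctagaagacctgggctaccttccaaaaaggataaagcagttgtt
ADAMTS12 intron 12, chr5:33631936-33632036, minus strand: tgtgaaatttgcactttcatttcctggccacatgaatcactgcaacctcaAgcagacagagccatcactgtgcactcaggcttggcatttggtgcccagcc

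MMP7 (matrilysin), a small MMP without the hemopexin domain, had a DPF3a summit 75 bp upstream of its start, with a fold enrichment of 8.04 and 22 reads. The AP-1 word begins 67 bases upstream. A SMAD4 peak of 4.73 overlapped it by the rule, with its summit 140 bp into the gene. The promoter table, with 250 bases before and 50 after each start, held 39 of the 66 members and 12 of the 23 MMP genes. Of those 39 members, MMP7 was the 1 that held AP-1, or 2.56% (0.454 to 13.2). MMP1, MMP3, MMP9, MMP12 and MMP13 were among the members not in it, so the count does not cover their promoters. AP-1 letters were in 4.95% of all 35116 promoters in the table. MMP1 (interstitial collagenase) had only a DPF3a peak, with a fold enrichment of 6.20 and 14 reads, in intron 7 and 6299 bp past its start. MMP26 (matrilysin 2) had 4 DPF3a peaks and 1 SMAD4 peak, and its strongest DPF3a peak reached 15.9 with 53 reads, near the top of the DPF3a list. The SMAD4 peak at that site was 8.02. MMP26 spans 288 kb in the annotation, and 1 of its DPF3a summits lay inside the olfactory receptor gene OR51G2.

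MMP13 (collagenase 3) had a SMAD4 peak of 5.40 with its summit 8 bp upstream of the start and an AP-1 match, overlapped by a p300 peak of 4.92 with 14 reads. No DPF3a peak lay in its window. MMP28 (epilysin) held a site of all 3 factors with 7.48, 13.2 and 5.64, but that summit lay inside C17orf50 and past the end of the canonical MMP28 transcript. The neutrophil collagenase MMP8, the stromelysins MMP3, MMP10 and MMP11, and macrophage elastase (MMP12) had no peak in any list.

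MMP7, MMP20, MMP27, MMP8, MMP10, MMP1, MMP3, MMP12 and MMP13 form a cluster at chr11:102520508-102955732, 435 kb with 9 genes. It held 13 DPF3a, 13 SMAD4 and 1 p300 peaks. Of these, 8 DPF3a and 7 SMAD4 peaks lay in no member window. The strongest DPF3a peak of the cluster, 14.5 with 76 reads, lay 25.6 kb past the MMP13 start, where SMAD4 had 10.7 with 94 reads. The strongest SMAD4 peak, 14.4 with 166 reads, lay 21.9 kb upstream of MMP7, and DPF3a had 12.1 with 55 reads there. Another DPF3a peak, of 11.99 with 34 reads, lay 7.84 kb upstream of MMP3 and had no SMAD4 partner. In all, 10 of the 13 DPF3a peaks overlapped SMAD4 peaks. The strongest peaks of the cluster were thus between its genes and outside the rule of 5000 bp.

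**Figure D3:**
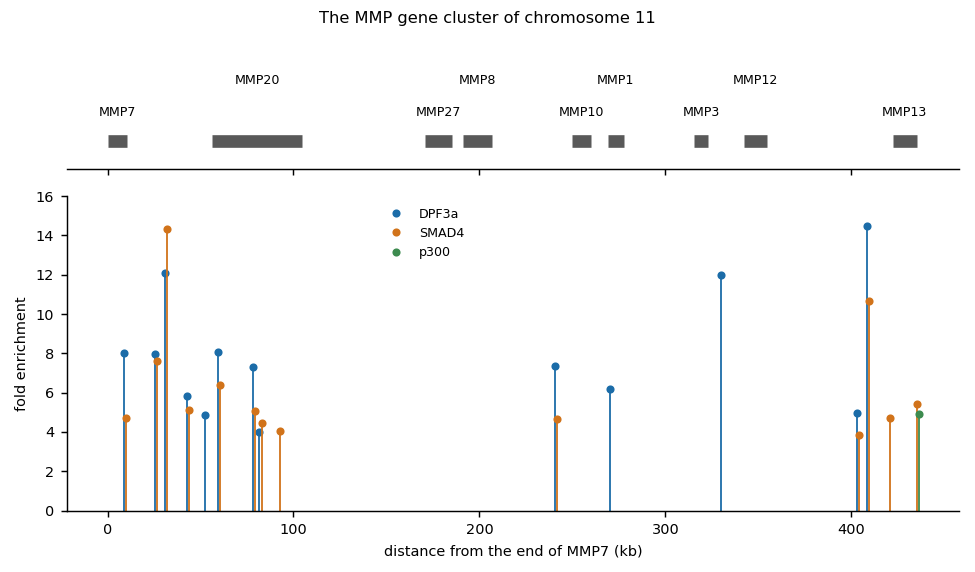
Fold enrichment (vertical axis) of all DPF3a, SMAD4 and p300 peaks by distance in kb from the end of MMP7 (horizontal axis), with genes as bars above and points of the 3 lists set slightly apart for legibility. The tallest DPF3a stem, 14.5, stands in the gap before MMP13, and the p300 list has 1 peak, at MMP13.

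Among the ADAM genes, those with a catalytic site had DPF3a peaks at 8 of 12, SMAD4 at 8 and p300 at 6, and 5 of them held a site of all 3 factors. The 8 genes without an active site had peaks at 3, 2 and 2. The shares of all genes were 65.8%, 72.2% and 51.5%, and the difference between the 2 kinds of ADAM was not tested. ADAM10 and ADAM17, sheddases of Notch receptors and of TNF respectively, each held a site of all 3 factors at the start. At ADAM17 it lay 131 bp upstream, with 6.25 for DPF3a, 10.8 for SMAD4 and 5.48 for p300, and the SMAD4 pileup was 174 reads. At ADAM10 the promoter site was weak in DPF3a (4.08, 19 reads) and stronger in SMAD4 (7.74, 77 reads). ADAM10 held another in intron 1, 17.8 kb past the start, with 5.98, 4.56 and 4.43 and the AP-1 and RUNX letters printed above. ADAM15 and ADAM19, a meltrin like ADAM12, held theirs 466 and 220 bp upstream, and that of ADAM15 also lay inside DCST1. ADAM22, which has no active site and acts as a receptor at synapses, had 7, 5 and 5 peaks, with a site of all 3 at its start (8.24, 9.93 and 6.12) and in intron 14.

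ADAM12, a meltrin that cuts IGF-binding proteins, had 20 DPF3a, 20 SMAD4 and 7 p300 peaks over 376 kb. That is 5.25 DPF3a and 5.25 SMAD4 peaks per 100 kb, above 91.6% and 93.2% of the 3667 protein-coding genes over 100 kb. Of its 20 DPF3a peaks, 17 overlapped a SMAD4 peak and 5 were sites of all 3 factors. The strongest of those lay in intron 1, 37.7 kb past the start, with 14.7, 12.4 and 7.06, each above 90% of its list. The one in intron 18 had 10.1, 15.5 and 6.91. In exon 1, 329 bp past the start, the 3 factors met with low values of 3.86, 4.24 and 4.17. The values along ADAM12 ranged from 3.19 to 14.7 for DPF3a, 3.11 to 15.5 for SMAD4 and 3.196 to 7.06 for p300, so that peaks inside the gene lay both above and below those at its start. The local background at its peaks was above that of the list, with a median of 4.79 reads against 2.82 for DPF3a, 9.05 against 5.16 for SMAD4 and 5.72 against 3.76 for p300. The part of that background in the number of peaks was not tested.

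**Figure D4:**
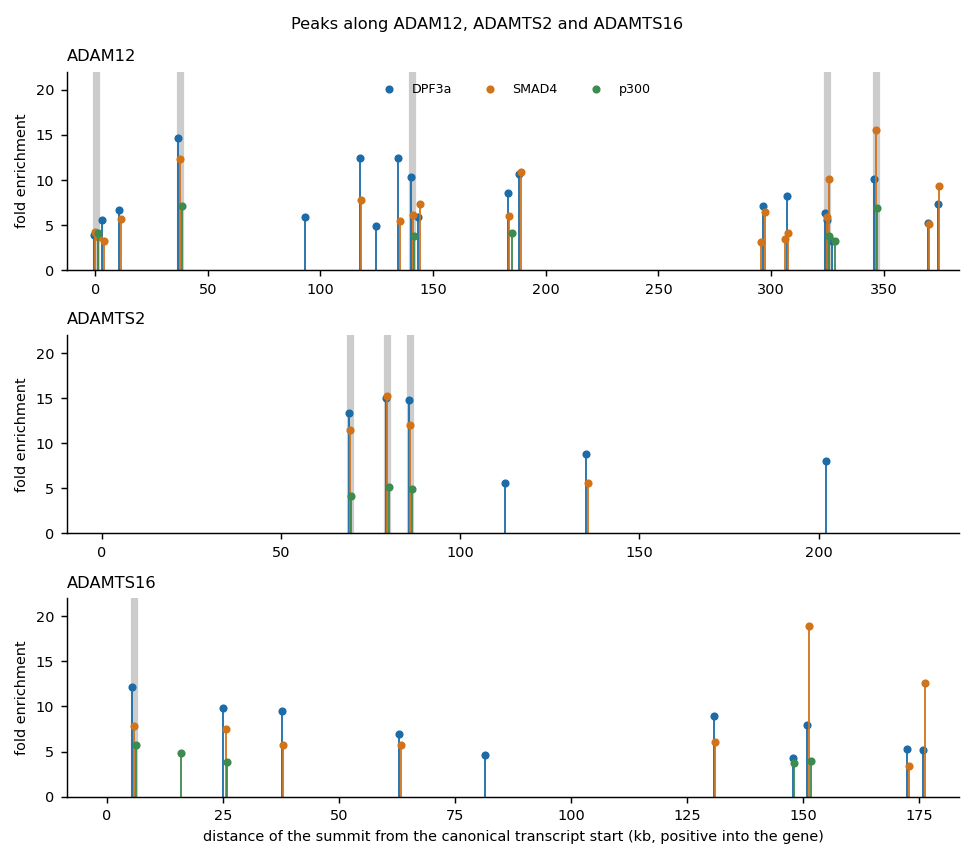
Fold enrichment (vertical axes) of DPF3a, SMAD4 and p300 peaks along ADAM12, ADAMTS2 and ADAMTS16 by distance from the canonical transcript start in kb (horizontal axes), with points of the lists slightly offset and grey bands at sites of all 3 factors. At ADAMTS2 the 3 bands stand together with DPF3a values from 13.3 to 15.1.

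The procollagen N-proteinases ADAMTS2, ADAMTS3 and ADAMTS14 remove the amino-terminal propeptide of fibrillar procollagens, ADAMTS3 also in the maturation of VEGFC. They had DPF3a peaks at 3 of 3, SMAD4 at 3 and p300 at 2, next to 65.8%, 72.2% and 51.5% of all protein-coding genes. ADAMTS2 and ADAMTS3 are over 100 kb, where 89.2%, 87.4% and 74.1% of all genes had a peak. ADAMTS2 held 3 sites of all 3 factors within 16.8 kb of introns 2 and 3. Their DPF3a values were 13.3, 15.1 and 14.8, their SMAD4 values 11.5, 15.2 and 12.1, and their p300 values 4.12, 5.18 and 4.94. All DPF3a and SMAD4 values of the 3 sites were above 90% of their lists, and those of p300 were between the 20.7 and 64.5 percentiles. ADAMTS3 had 10, 10 and 5 peaks, with the strongest p300 peak of any member (7.55, 22 reads) in intron 3, where DPF3a had 10.4 and SMAD4 6.31. ADAMTS14 had 3 DPF3a and 2 SMAD4 peaks.

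The proteoglycanases, ADAMTS1, ADAMTS4, ADAMTS5, ADAMTS8, ADAMTS9, ADAMTS15 and ADAMTS20, which cut aggrecan or versican, had DPF3a peaks at 7 of 7, SMAD4 at 6 and p300 at 3, and none held a site of all 3 factors. With 7 genes, and 65.8%, 72.2%, 51.5% and 29.9% of all protein-coding genes, these counts are a description only. ADAMTS5, the main aggrecanase in mouse cartilage, had a DPF3a peak of 4.57 in its promoter with 14 reads. ADAMTS9 had the strongest peaks of the group, 11.5 for DPF3a and 11.4 for SMAD4, and at the other genes of the group no DPF3a peak was above 8.49.

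ADAMTS12, which cuts cartilage oligomeric matrix protein, held the strongest DPF3a peak of all members, 18.4 with 87 reads in intron 12, where SMAD4 had 13.0. p300 had 5 peaks in this gene, none shared with either list. ADAMTS16 had 10 DPF3a, 8 SMAD4 and 5 p300 peaks and the strongest SMAD4 peak of all members, 18.9 with 272 reads in intron 18, where DPF3a had 7.99. Its site of all 3 factors lay on coding exon 3, 5817 bp past the start, with 12.2, 7.86 and 5.73. In intron 21 a SMAD4 peak of 12.6 with 120 reads held both the SMAD palindrome and AP-1, in capitals in the stretch printed next, and DPF3a had 5.16 there. It was the 1 SMAD4 summit at members with the palindrome, which 111 of 46367 SMAD4 summits held.

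ADAMTS16 intron 21, SMAD4 summit, chr5:5316427-5316527, plus strand: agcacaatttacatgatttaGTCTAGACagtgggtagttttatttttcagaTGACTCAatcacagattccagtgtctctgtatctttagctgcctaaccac

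ADAMTS13, the protease of von Willebrand factor, held a site of all 3 factors 4234 bp upstream of its start, with 6.28, 10.4 and 3.75, in the promoter of the neighbouring gene REXO4. ADAMTS7 and ADAMTS10 had SMAD4 peaks of up to 5.97 and 5.07 and no others, ADAMTS17 had 4 DPF3a peaks of 5.37 to 6.32 and 4 SMAD4 peaks of 4.29 to 6.46, and ADAMTS19 had no peak.

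The inhibitors differed from each other. TIMP1 had a DPF3a peak of 10.1 with 28 reads and a SMAD4 peak of 11.5 with 49 reads, with summits 39 and 26 bp upstream of its canonical start, and both held the RUNX word. The gene lies inside SYN1. TIMP2, which also takes part in the activation of the MMP2 precursor, had 3 DPF3a, 4 SMAD4 and 2 p300 peaks and held 2 sites of all 3 factors. In intron 3 these had 12.8, 9.91 and 4.63, and in intron 1 they had 8.19, 6.81 and 4.11. A SMAD4 peak of 8.76 lay 29 bp past the TIMP2 start without a DPF3a partner. TIMP4 had a DPF3a peak of 10.1 and a SMAD4 peak of 10.2 in intron 3, in a gene that lies inside SYN2. TIMP3, the inhibitor bound to the matrix, had no peak, and the nearest lay 106 kb away for DPF3a, 78.0 kb for SMAD4 and 326 kb for p300.

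No peak in any list was found at 18 members, or 27.3% (18.0 to 39.0), compared with 24.5% of all protein-coding genes. They were ADAM2, ADAM18, ADAM23, ADAM28, ADAM29, ADAM30, ADAM32, ADAM33, ADAMTS19, MMP3, MMP8, MMP10, MMP11, MMP12, MMP21, MMP23B, MMP27 and TIMP3. A DPF3a peak lay within 20 kb of 5 of them. That a list holds no peak says only that none passed the score limit of the authors.

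Most member peaks were intronic, under a rule that takes summits in genes or just upstream, and no such share over all genes was computed. Introns outside promoters held 73.8% of the DPF3a (65.9 to 80.3), 68.1% of the SMAD4 (60.1 to 75.1) and 62.5% of the p300 peaks (50.3 to 73.3). Promoters, from 1000 bp upstream to 100 bp downstream of any transcript start, held 14.2%, 21.5% and 21.9%. A promoter peak was found for DPF3a at 16 members (24.2%, 15.5 to 35.8), against 41.6% of all protein-coding genes. For SMAD4 it was 24 (36.4%, 25.8 to 48.4), against 57.2%, and for p300 it was 12 (18.2%, 10.7 to 29.2), against 32.9%. The intervals of all 3 lay below the background. ADAM10, ADAM15, ADAM17, ADAM19, ADAM22, ADAMTS1, ADAMTS3, ADAMTS5 and MMP16 had a promoter peak in each of the 3 lists.

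CpG content of the promoter moved with these shares. Among the 36 members whose promoter had a CpG ratio of 0.6 or more, the ratio of observed to random CpG pairs, promoter peaks were found at 33.3% (20.2 to 49.7) for DPF3a, 52.8% (37.01 to 68.0) for SMAD4 and 30.6% (18.0 to 46.9) for p300. All protein-coding genes of that class gave 55.0%, 75.5% and 45.2%. Among the 30 members with a lower ratio the shares were 13.3%, 16.7% and 3.33%, against 15.5%, 21.3% and 8.74%. The intervals of DPF3a and SMAD4 lay below the share of all genes in the class of high ratio, and the other intervals reached it.

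Most DPF3a peaks at members met SMAD4. Of 141 DPF3a peaks, 92 (65.2%, 57.1 to 72.6) overlapped a SMAD4 peak, compared with 59.3% over the DPF3a list. With p300 it was 27 (19.1%, 13.5 to 26.4), compared with 16.6%, and 47 overlapped neither. Of 144 SMAD4 peaks, 92 (63.9%, 55.8 to 71.3) overlapped DPF3a, compared with 65.9%. Each of these shares had the share of its list inside the interval. At the 92 shared sites the 2 summits lay a median of 53 bp apart, and 49 bp over the list. At 6 of them both peaks were above 90% of their lists, and these lay in ADAM12, ADAMTS2, ADAMTS6 and ADAMTS12.

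**Figure D5:**
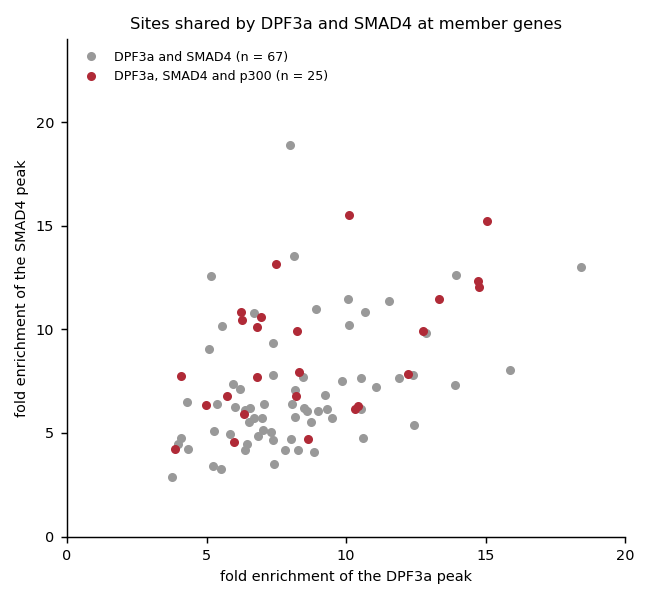
Fold enrichment of the SMAD4 peak (vertical axis) against that of the DPF3a peak (horizontal axis) at the 92 shared sites of members, with the 25 sites of all 3 factors in red. The ADAMTS16 site with SMAD4 at 18.9 and DPF3a at 7.99 and the ADAMTS12 site with DPF3a at 18.4 stand at the edges.

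The p300 peaks at members were low. Their median fold enrichment was 4.83, and 4.92 over the list, whereas it was 6.79 for DPF3a (list 6.70) and 6.07 for SMAD4 (list 6.31). Of the 64, 31 overlapped neither of the other lists by the rule, with a median of 17 reads. The other 33 had a median of 30 reads. Of the 31, 15 (48.4%) lay on chromosomes 5, 7 and 8, compared with 32.9% of such peaks over the list, and so did 9 of the other 33 (27.3%), compared with 16.8% of such peaks over the list. Both shares were above those of the list, but member peaks can lie only where members lie. Chromosomes 5, 7 and 8 held 6, 1 and 7 members, and this was not adjusted for. These chromosomes were picked on the assumption of gained p300 signal. That gain was not measured here, and the shares are a description only. The members on these chromosomes with p300 peaks were ADAM19, ADAMTS2, ADAMTS12 and ADAMTS16, ADAM22, and ADAM9 and MMP16. At ADAM9, ADAMTS9, ADAMTS12, ADAMTS18 and MMP17 every p300 peak was of the kind that overlapped neither list.

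AP-1 letters were found at 27 of 141 DPF3a summits of members (19.1%, 13.5 to 26.4), at 24 of 144 SMAD4 summits (16.7%, 11.5 to 23.6) and at 3 of 64 p300 summits (4.69%, 1.61 to 12.9). Over the lists it was 22.05%, 15.0% and 3.61%. In promoters it was 4 of 20 member DPF3a summits and 1 of 31 member SMAD4 summits, and outside them 23 of 121 and 23 of 113, with no share over the lists computed by class and no test. TEAD letters were found at 9 DPF3a and 8 SMAD4 summits, RUNX at 6 and 6, and ETS at 2 and 1.

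Genes around the same pathway were listed from general knowledge, and 30 of them were found. DPF3a peaks lay at 26, SMAD4 at 26 and p300 at 15, and 11 held a site of all 3 factors. These shares were 86.7%, 86.7%, 50% and 36.7%, against 65.8%, 72.2%, 51.5% and 29.9% of all protein-coding genes. Gene length, which moved with such shares, was not adjusted for here, and the list holds very long genes such as ADAMTSL1 and THSD4. The groups within the list are too small to set against those shares. The partners of ADAM10 and ADAM17, which are tetraspanins, iRhoms and FRMD8, had DPF3a and SMAD4 peaks at 9 of 9 and p300 peaks at 5. TSPAN5 (10, 11 and 1 peaks) and TSPAN14 (8, 10 and 2) were at the top. The ADAMTS-like genes, which lack the protease, had DPF3a and SMAD4 peaks at 7 of 7 and p300 peaks at 3, led by THSD4 with 23, 15 and 4 peaks. RECK, a membrane-anchored inhibitor of MMPs, had 3, 2 and 2 peaks with DPF3a up to 14.0 and 2 sites of all 3 factors. A2M, THBS2, MEP1A and MEP1B had none.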

How the data were processed

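Binding of DPF3a, SMAD4 and p300 in 786-O cells was measured by ChIP-seq, and samples were grouped by the factor in their titles, with 2 libraries each. Per the study's methods and the submitters' processing notes, the authors trimmed reads before alignment to hg38 (Bowtie2 2.3.5.1), kept well mapped nuclear reads without duplicates, and used MACS2 2.2.5 as the peak caller. The lists were deposited with a score (10 times −log10 q as a whole number, and over 50), the fold ratio of summit pileup to local background, and −log10 p and −log10 q values of the caller. The authors made 1 list from both replicates. How they were combined is not given in the sources used here.

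Summits were given to genes of GENCODE 44 with Python 3.11.15, pandas 2.3.3 and pysam 0.24.0. Overlaps were checked with bedtools 2.31.1, which gave equal counts in 6 of 6 comparisons. Whole summit reads were computed from fold enrichment and −log10 p, returned −log10 p within 8.6e-04, and the code was tested on simulated data. In the first test it failed for simulated peaks whose p underflowed. This was corrected, and no value of a member peak changed. CpG ratios were taken over 1000 bp around the canonical start.

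Members, motifs and gene lists were chosen with earlier results of these data known. The genes given with values were those with a site of all 3 factors, the 2 of each family with most peaks, those of the 3 strongest peaks of each list, all TIMPs, MMP1, MMP2, MMP16 and the cluster on chromosome 11, and other names were added after their values were seen to complete a role group. Alternatives were other score limits, equal-size lists, other gene windows, promoters, overlaps and motif windows. No test across genes was made.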

Additional observations from a re-analysis of the deposited data

How the results depend on the processing

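No paired analysis was possible because the 2 libraries of a factor share 1 peak list, and for the same reason no replicate could be left out. Of 49 values recomputed under an alternative, 29 stayed within 1.5 times the main count or within its interval, and 20 did not. With scores over 100, 8 members held a site of all 3 factors and 9 had a p300 peak, next to 17.7% of all protein-coding genes for p300. With scores over 200, 19 members had a DPF3a and 1 a p300 peak, next to 25.1% and 1.88% of all protein-coding genes. With equal-size lists, 20 had a DPF3a peak. No share over all genes was computed for those lists or for such sites at the higher score. With scores over 100 the median fold enrichment of DPF3a was 8.32, that of SMAD4 6.67 and that of p300 5.56, and that limit raises it by its construction. With scores over 100, 12.6% of DPF3a peaks were shared with p300, 9.71% of SMAD4 peaks with p300, and of the 12 p300 peaks left 91.7% with DPF3a and 83.3% with SMAD4. An overlap of 1 bp raised the shares to 75.2% of DPF3a peaks with SMAD4, 26.9% with p300, 75% of SMAD4 peaks with DPF3a, 29.9% with p300, and 59.4% and 70.3% of p300 peaks with DPF3a and SMAD4. A motif window of 100 bp on either side raised AP-1 to 32.6% of DPF3a and 27.8% of SMAD4 summits. An alternative chosen after seeing the data, without p300 peaks that touch no other list, left 24 members with a p300 peak. The median DPF3a peak at members had 24 reads, the SMAD4 peak 38 and the p300 peak 22, and the part of depth was not tested.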

Other observations

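The strongest peaks near members did not always fall under the rule of 5000 bp. Widening it to 20000 bp upstream gave 47 members with a DPF3a, 46 with a SMAD4 and 30 with a p300 peak, and 18 with a site of all 3 factors. No share over all genes was computed for that window. The strongest DPF3a and SMAD4 peaks of the MMP cluster lay outside the wider window too. Of the 18 members without a peak, DPF3a summits came as close as 7.84 kb, at MMP3, and the median distance was 46.2 kb for DPF3a, 59.6 kb for SMAD4 and 141 kb for p300.

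Sites of all 3 factors outside promoters had a higher median DPF3a value than those in promoters, as did member DPF3a peaks in general. Over all member DPF3a peaks the median was 7.06 outside promoters and 5.67 in promoters, and no such values were computed over the list. At sites of all 3 factors it was 9.36 for the 18 outside promoters and 6.25 for the 7 in promoters, with a range of 3.86 to 15.1 and of 4.08 to 8.24. At these sites the median for SMAD4 was 8.93 and 7.74, and for p300 it was 4.53 and 5.07. ADAM12 and ADAMTS2 held 8 of the 18, and no test was made.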
